A study of Mus musculus with 6 samples.

Results

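The clade B serpins described here are 10 genes of the deposited table of 17554 genes, *Serpinb1a*, *Serpinb2*, *Serpinb3a*, *Serpinb5*, *Serpinb6a*, *Serpinb8*, *Serpinb9*, *Serpinb10*, *Serpinb11* and *Serpinb12*, chosen by symbol and found as 1 row each. The table holds 20 clade B genes in all, and the other 10 are given below for comparison only. Corneal epithelial RNA was measured by bulk RNA-seq in 3 control mice, which the labels call WT, and in 3 *Krt14-Cre; Rela f/f* mice, which they call Rela-/-. All 6 mice were 2 months old and of the C57BL/6 strain, and each sample came from the separated epithelial layer. *Krt14-Cre* removes the floxed part of *Rela*, the gene of the RelA subunit of NF-κB, in every tissue whose cells use the *Krt14* promoter, among them the limbus, conjunctiva and skin, so the deletion was not limited to the cornea. Which Cre or floxed alleles the control mice carried is not given in the sources used here. The expected counts of a sample, in which a read matching more than 1 gene is split between the genes, summed to between 19492942 and 19733834.

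Serpins are proteins that trap a protease by offering it an exposed loop as bait. When the protease cuts the loop, the serpin folds around it and holds it in an inactive complex. Clade B serpins lack a classical signal peptide and mostly act inside cells, where they are known for guarding the cytoplasm against proteases that leak from granules and lysosomes. Stratified epithelia such as epidermis and cornea make many of them, and a few members, maspin among them, do not inhibit proteases in the usual way. In the mouse the genes lie in a pair of clusters and several have been duplicated into related copies.

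*Rela* itself had an FPKM of 36.5, 34.7 and 33.4 in control mice and of 4.93, 5.53 and 5.72 in mutant mice. FPKM is a read count scaled for transcript length and sample total, so it can be set side by side between genes. Its mutant values were all far below the control values, on the log2 scale by -2.75 (standard error 0.085, Benjamini-Hochberg adjusted p = 5.5e-07 by edgeR's quasi-likelihood fit). On a principal component analysis the first component separated the genotypes. On the second component mutant sample 1 lay at 24.1 and mutant sample 3 at -20.6, so the mutant mice were less alike than the control mice, which lay between -1.3 and 5.2. *Krt12*, the corneal keratin, had an FPKM of 18871 to 21194 in control and 17005 to 19245 in mutant samples, so the defining marker of the labelled tissue was abundant in each sample.

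Promoter sequence is shown first because it is a feature of the genes that their choice did not use. RefSeq promoter windows of GRCm38.p6, each with 250 bases before and 50 after a transcript start, were found for 9 of the 10 genes. *Serpinb1a* had none. They were searched on both strands for TGANTCA, the STAT motif TTCNNNGAA and the NF-κB motif. TGANTCA, called the AP-1 motif below, is a loose form that allows any central base. The usual AP-1 site has C or G there, and its share was not counted. The AP-1 motif was present in windows of 6 of the 9 genes (*Serpinb2*, *Serpinb5*, *Serpinb8*, *Serpinb10*, *Serpinb11* and *Serpinb12*), where 8.97% of 27025 genes with windows and 6.48% of 10112 tested genes with windows held it. The upstream sequences of *Serpinb5*, the most abundant of the 10, at chr1:106860925-106861172 (248 bases), and of *Serpinb2*, the one with the largest change, at chr1:107511173-107511422 (250 bases), follow. Both are on the plus strand, 5′ to 3′, with the AP-1 motif in capitals. Each ends just before an annotated exon.
Serpinb5: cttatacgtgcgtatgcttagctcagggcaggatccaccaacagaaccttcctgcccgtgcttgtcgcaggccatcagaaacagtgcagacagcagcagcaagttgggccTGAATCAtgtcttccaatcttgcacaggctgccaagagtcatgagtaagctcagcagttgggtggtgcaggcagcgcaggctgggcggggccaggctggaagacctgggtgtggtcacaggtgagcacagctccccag
Serpinb2: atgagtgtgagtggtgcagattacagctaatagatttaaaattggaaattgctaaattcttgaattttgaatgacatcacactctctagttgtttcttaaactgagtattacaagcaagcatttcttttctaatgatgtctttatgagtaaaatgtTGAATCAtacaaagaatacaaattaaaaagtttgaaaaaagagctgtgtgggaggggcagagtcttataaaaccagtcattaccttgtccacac
The *Serpinb2* motif lay 94 bases before the transcript start at position 107511423, which is inside the span that the deposited table gives the gene. That of *Serpinb5* lay 140 bases before its start.

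The other matches on chromosome 1 are shown with 10 flanking bases on each side, again with the motif in capitals, so that the 7 central letters can be compared. *Serpinb11* held a pair of matches 181 and 76 bases before its start.
Serpinb11 at -181: aagtatagtgTGATTCAgaaagcacag
Serpinb11 at -76: ggtgaagagcTGAATCAtaacaacaca
Serpinb10 at -54: cttgtgaaagTGAATCAagggtggggc
Serpinb8 at -23: gtgggaagtgTGAGTCAcagagtgttc
Serpinb12 at -45: aaaaacaatcTGATTCAcgatcattat
Serpinb7 at -45: agggagtgtcTGAGTCAgaggctttat
*Serpinb5*, *Serpinb2*, *Serpinb10* and the site of *Serpinb11* nearer its start shared the letters TGAATCA. Only *Serpinb8* and *Serpinb7* had TGAGTCA, with G at the centre. *Serpinb8* held a further TGAGTCA, 14 bases after its start, which is not shown. Of all clade B genes with windows, 7 of 10 on chromosome 1 and 0 of 9 on chromosome 13 held the AP-1 motif. Genes of a cluster are related, so they do not count as independent genes beside the shares over all genes. Whether the matches share a common origin was not tested. No clade B window held the NF-κB motif, which 9.55% of all genes with windows held, and the STAT motif was found in *Serpinb2*, *Serpinb6a* and *Serpinb9c*, against 9.55% of all genes. None of these matches overlapped a match of another motif. A match is a string of letters and not a measured site, and the absence of one says only that the letters are not in that window. The NF-κB motif was searched as a single pattern, so sites spelled otherwise or lying farther off were not sought.

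Of the 10 genes, 9 passed the filter on low counts and were tested, and 5 of these, *Serpinb1a*, *Serpinb2*, *Serpinb5*, *Serpinb6a* and *Serpinb11*, rose in the mutant epithelium at an adjusted p under 0.05. None fell. Over all 12667 genes tested, 7.82% rose and 5.42% fell at that threshold. The median log2 fold change of the 9 genes was 0.68, beside 0.00 over all genes tested, and 7 of the 9 were above 0. Under the stricter call of the paper's methods, which asks for a 2-fold change and an adjusted p no higher than 0.001, edgeR called 0 of the 9 and 1.37% of all genes. At an unadjusted p under 0.05 edgeR's count was 5 of the 9, beside 28.1% of all genes, and DESeq2 made 1 stricter call among the 9, *Serpinb2*, beside 2.61% of all genes. In 5 of the 10 genes every mutant sample lay above every control sample in CPM, the counts of a sample scaled to a common total, and in 1, *Serpinb10*, every mutant sample lay below. Among the genes tested, 17.3% had all mutant samples above and 16.4% all below. Without mutant sample 1 the number of genes called stayed at 5, and it dropped to 3 without control sample 1, control sample 2 or mutant sample 2, when *Serpinb1a* and *Serpinb11* were lost. Exact permutation of 3 mice against 3 gives no p below 0.1, so calls rest on edgeR's quasi-likelihood test across all genes. In bulk RNA a change in the number of cells of a type and a change in RNA per cell cannot be told apart.

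**Figure D1:**
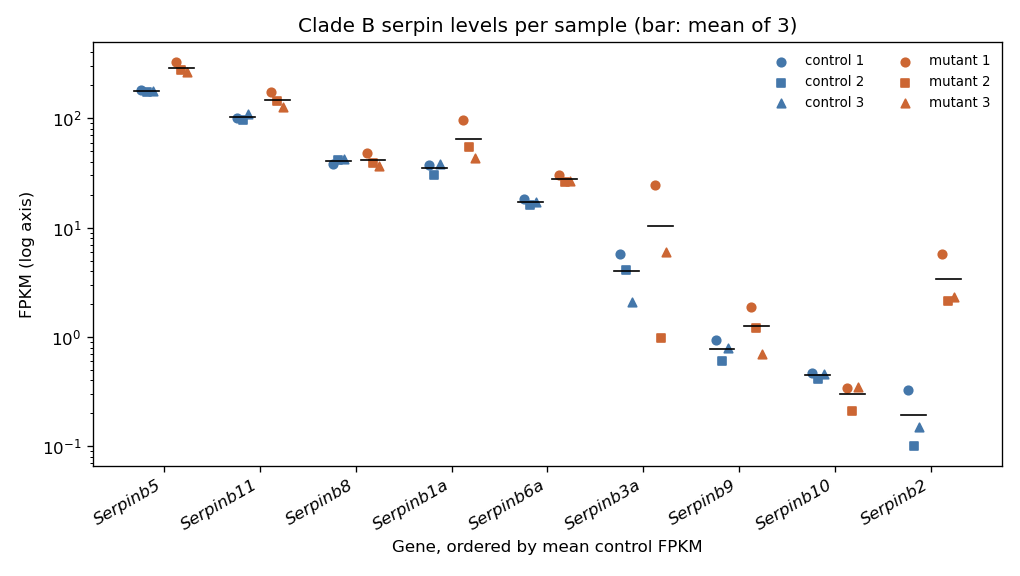
FPKM of 9 clade B serpins in each sample on a log axis, with genes ordered by mean control FPKM (blue: control, orange: mutant, marker shape: mouse, black bar: mean of 3). *Serpinb12*, at 0 in all but 1 sample, is not drawn. The mutant points lie above the control points in *Serpinb5*, *Serpinb11*, *Serpinb1a*, *Serpinb6a* and *Serpinb2*, and *Serpinb3a* spreads from 0.98 to 24.3 among the mutant mice.

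*Serpinb5* encodes maspin, a serpin of epithelial cells that does not inhibit proteases in the usual way and is known as a tumour suppressor of the breast. It lies on chromosome 1 of GRCm38 from 106861180 to 106883348, plus strand. Its FPKM was 181, 174 and 177.5 in control mice and 330, 278 and 263 in mutant mice. All mutant samples lay above all control samples, and the control mice were within 1.04-fold of each other. The mean rose from 177 ± 3.9 to 290 ± 35 (SD, n = 3 each), a log2 fold change of 0.71 (standard error 0.097, edgeR quasi-likelihood adjusted p = 0.0015). The 95% interval was 0.49 to 0.93. The call held under each alternative run, with a highest adjusted p of 0.015. By mean FPKM *Serpinb5* stood at place 312 of all genes in control and at place 215 in mutant samples.

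*Serpinb11* encodes a serpin that in the mouse inhibits trypsin-like proteases in the test tube. It lies on chromosome 1 from 107362314 to 107380475. Its FPKM was 99.96, 97.3 and 111 in control mice and 174, 144 and 126 in mutant mice. The groups did not overlap, but mutant sample 3 came close to control sample 3. The log2 fold change stood at 0.52 (standard error 0.12, 95% interval 0.25 to 0.80, edgeR adjusted p = 0.022). The adjusted p rose to 0.080, 0.105 and 0.055 without control sample 1, control sample 2 and mutant sample 2. *Serpinb5* and *Serpinb11* were the most abundant clade B serpins in each of the 6 samples and together made 70.5% to 76.9% of the clade's summed FPKM. The ratio of *Serpinb5* to *Serpinb11* was 1.61 to 1.81 in control and 1.89 to 2.09 in mutant samples, without overlap.

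*Serpinb8* inhibits furin, a proprotein convertase that cuts precursors of growth factors and receptors. It lies on chromosome 1 from 107589926 to 107611795, at the far end of the same cluster. Its FPKM was 38.3, 41.2 and 42.3 in control mice and 48.4, 39.2 and 36.9 in mutant mice. The groups overlapped, with the highest and the lowest value both in mutant mice. On the log2 scale the change was -0.06 (standard error 0.10, edgeR adjusted p = 0.74), and the 95% interval of -0.28 to 0.16 leaves out changes of the size seen in *Serpinb5* and *Serpinb6a*. The ratio of *Serpinb5* to *Serpinb8* was 4.20 to 4.74 in control and 6.82 to 7.13 in mutant samples. *Furin* itself had an FPKM of 19.03, 18.5 and 18.99 in control mice and of 24.8, 25.7 and 29.9 in mutant mice. It rose by 0.51 on the log2 scale (edgeR adjusted p = 0.0036), so that the protease was higher in every mutant sample while its inhibitor overlapped between the groups.

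*Serpinb1a*, *Serpinb6a* and *Serpinb9* are known as shields against proteases of leukocyte granules, and all lie in the cluster on chromosome 13. *Serpinb1a*, from 32842092 to 32851185 on the minus strand, inhibits neutrophil elastase, proteinase-3 and cathepsin G. Its FPKM was 37.1, 30.03 and 37.9 in control mice and 96.1, 54.8 and 43.2 in mutant mice. The groups did not overlap, and mutant sample 1 stood 2.22-fold above mutant sample 3. The fitted log2 fold change was 0.88 (standard error 0.25, 95% interval 0.31 to 1.45), and its adjusted p of 0.0495 from edgeR's quasi-likelihood test was just under the threshold. DESeq2 gave an adjusted p of 0.108 and upper-quartile scaling 0.052, and the alternatives ranged from 0.0088 to 0.187. *Serpinb1a* shared 2.81% of the 50-base windows of its transcripts with other genes, chiefly *Serpinb1c*.

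*Serpinb6a*, from 33879628 to 34002794 on the minus strand, inhibits cathepsin G and is known from inherited hearing loss. Its FPKM was 18.3, 16.0 and 17.2 in control mice and 30.1, 25.9 and 26.9 in mutant mice. The mutant mice were within 1.16-fold of each other and all above the control mice. Its log2 fold change was 0.68 (standard error 0.091, 95% interval 0.48 to 0.89, edgeR adjusted p = 0.0012), and its highest adjusted p under any alternative was 0.0105. In GENCODE, 29.3% of its exon bases overlap exons of *Nqo2*, *Ripk1* or *1110046J04Rik*, and 25.1% of its 50-base windows are found in other genes. Reads there could be counted for either gene. *Nqo2* changed by -0.34 on the log2 scale (edgeR adjusted p = 0.042) and *Ripk1* by 0.06 (edgeR adjusted p = 0.65). *1110046J04Rik* was not analysed here, and the part of shared reads in the value of *Serpinb6a* was not tested.

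*Serpinb9*, from 32997061 to 33017955, inhibits granzyme B, the death protease of cytotoxic lymphocytes. Its FPKM was 0.94, 0.60 and 0.79 in control mice and 1.88, 1.21 and 0.70 in mutant mice. The groups overlapped, since mutant sample 3 lay below control samples 1 and 3. Its log2 fold change of 0.58 (95% interval -0.12 to 1.28) did not pass edgeR's quasi-likelihood test (adjusted p = 0.26).

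The proteases best known as their partners, *Elane*, *Prtn3*, *Ctsg* and *Gzmb*, were not analysed here. Of 11 listed neutrophil and mast cell proteases, 4 (*Cpa3*, *Mcpt1*, *Mcpt4* and *Prss57*) were found in the table, at 17 counts or fewer in each sample, and 0 passed the filter on low counts. Their summed level was 0.96 to 1.31 CPM in control and 0.65 to 0.72 CPM in mutant samples, where 3 counts in a library equal 0.152 to 0.154 CPM. Of 6 lymphocyte granzymes, 3 were in the table and 1, *Gzmm*, was tested, at a log2 fold change of -0.38 (edgeR adjusted p = 0.61). *Casp1*, the caspase that activates interleukin 1 beta, did not pass the filter, with counts of 9, 4 and 5 in control and of 54, 23 and 8 in mutant samples.

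*Serpinb2* encodes plasminogen activator inhibitor 2, which inhibits urokinase and tissue plasminogen activator and is known for its strong induction in inflamed and wounded epithelium. It had the largest log2 fold change of the 10 genes. The table places it on chromosome 1 from 107500892 to 107525600. Its expected counts were 13, 4 and 6 in control mice and 220, 83 and 90 in mutant mice, which equal an FPKM of 0.33, 0.10 and 0.15 and of 5.73, 2.14 and 2.31. Even the lowest mutant count was far above the highest control count. The fold was 16.8, a log2 fold change of 4.07 (standard error 0.52, 95% interval 2.90 to 5.24, edgeR adjusted p = 0.0010). Its call at an adjusted p under 0.05 held under each alternative, with a highest adjusted p of 0.012. The log2 fold change was 3.46 without mutant sample 1 and 4.66 without control sample 1, and 1.79 with limma on log2(FPKM + 1), a scale that understates the change of low genes. Its adjusted p lay near the stricter threshold, which it passed with DESeq2 and also in edgeR with no filter, with the replicate block, or without mutant sample 1 or 3. By mean FPKM it moved from the ninth to the seventh place among the 10 genes, so that it stayed a minor member even after its rise. In GENCODE, 12.4% of the exon bases of *Serpinb2* overlap exons of *Serpinb10*, and 10.4% of the 50-base windows of *Serpinb2* are shared with that gene.

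Of 4 tested genes of plasminogen activation 3 rose and 0 fell, beside 7.82% higher and 5.42% lower over all genes tested. Those that rose were the *Serpinb2* targets *Plau* and *Plat* and the urokinase receptor *Plaur*. *Plau*, the gene of urokinase, had an FPKM of 6.14, 3.71 and 3.16 in control mice and of 14.6, 15.7 and 18.3 in mutant mice, a log2 fold change of 1.91 (edgeR adjusted p = 0.00039). *Plat*, the gene of tissue plasminogen activator, had 6.40, 4.05 and 3.54 and then 9.68, 9.77 and 13.6, a log2 fold change of 1.24 (adjusted p = 0.0043 in the same test). *Plaur*, the urokinase receptor, had 0.27, 0.10 and 0.21 and then 6.92, 4.27 and 5.59, a log2 fold change of 4.82 (adjusted p = 2.58e-05 in the same test). All mutant values of these genes lay above all control values. Unlike *Serpinb2*, *Plau* and *Plat* were highest in mutant sample 3. *Plgrkt*, the other gene tested, changed by -0.12 on the log2 scale (edgeR adjusted p = 0.47).

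*Serpinb3a* is the mouse relative of the squamous cell carcinoma antigens, which inhibit cathepsins of the lysosome and chymotrypsin-like proteases. It lies on chromosome 1 from 107045587 to 107052303 on the minus strand. Its FPKM was 5.78, 4.09 and 2.11 in control mice and 24.3, 0.98 and 5.94 in mutant mice. The mutant mice held both the highest and the lowest value, 24.8-fold apart, while the control mice were 2.74-fold apart. Its log2 fold change of 1.39 (95% interval -0.44 to 3.21, edgeR adjusted p = 0.30) turned to -0.22 without mutant sample 1. *Serpinb3a* shared 238 of its 1582 windows of 50 bases with other genes, most with *Gm8080*. Its neighbour *Serpinb3c*, with which reads could be divided, had counts of 6.06, 8.06 and 0 in control and of 26.1, 2 and 5.07 in mutant samples, also highest in mutant sample 1.

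Of 10 cathepsins tested, 2 rose and 1 fell, with a median log2 fold change of 0.26. Over all genes tested, 7.82% rose and 5.42% fell. *Ctsl*, the cysteine protease of lysosomes that the human relatives of *Serpinb3a* inhibit, had an FPKM of 351, 326 and 356 in control and of 557, 458 and 463 in mutant samples, without overlap. The log2 fold change stood at 0.51 (edgeR adjusted p = 0.0082). *Ctsz*, at 0.39 to 0.61 FPKM in control and 1.67 to 1.69 in mutant mice, rose by 1.77 and *Ctsf* fell by 0.54 on the log2 scale, with adjusted p-values of 0.0018 and 0.0167 in the same test. Only 1 cathepsin was called without control sample 2.

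*Serpinb10*, called bomapin, is known from the nuclei of myeloid cells. It lies on chromosome 1 from 107528994 to 107560742. Its FPKM was 0.47, 0.41 and 0.46 in control mice and 0.34, 0.21 and 0.35 in mutant mice. It was the only one of the 10 with every mutant sample below every control sample, but its log2 fold change of -0.47 (95% interval -1.10 to 0.17) did not pass edgeR's quasi-likelihood test (adjusted p = 0.32). *Serpinb12*, an inhibitor of trypsin-like proteases known from epidermis, was at 0 counts in 5 samples and at 1 count in mutant sample 2. A count of 0 allows a level of up to 0.152 to 0.154 CPM, so expression of *Serpinb12* was not detectable at this depth, although its window holds the AP-1 motif.

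Of the other 10 clade B genes, 3 passed the filter on low counts. *Serpinb6b*, a relative of *Serpinb6a*, had an FPKM of 0.33, 0.09 and 0.21 in control mice and of 1.73, 1.09 and 1.18 in mutant mice. Of its 50-base windows 2.92% were shared with other genes, chiefly *Serpinb6c*. *Serpinb6b* rose by 2.63 on the log2 scale (standard error 0.41, edgeR adjusted p = 0.0028), from a far lower level than *Serpinb6a*. *Serpinb7*, called megsin and known from an inherited thickening of palm and sole skin, had an FPKM of 0.51, 0.35 and 0.49 and then of 1.39, 0.82 and 1.05. Its groups did not overlap, with a log2 fold change of 1.25 (adjusted p = 0.022 in the same test). *Serpinb1c*, a relative of *Serpinb1a*, had an FPKM of 0.65, 0.49 and 0.44 in control mice and of 0.16, 0.21 and 0.17 in mutant mice. It fell while *Serpinb1a* rose, with a log2 fold change of -1.52 (adjusted p = 0.021 in the same test), and it shared 6.28% of its 50-base windows with other genes. The calls of *Serpinb7* and *Serpinb1c* were each lost without control sample 1, control sample 2 or mutant sample 1, among others. Counts of 21.1 or fewer stand behind each *Serpinb1c* value, and reads in its few shared windows could have been divided between genes. With *Serpinb3c* and 6 genes with fewer than 10 counts in each sample, this accounts for the 10.

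**Figure D2:**
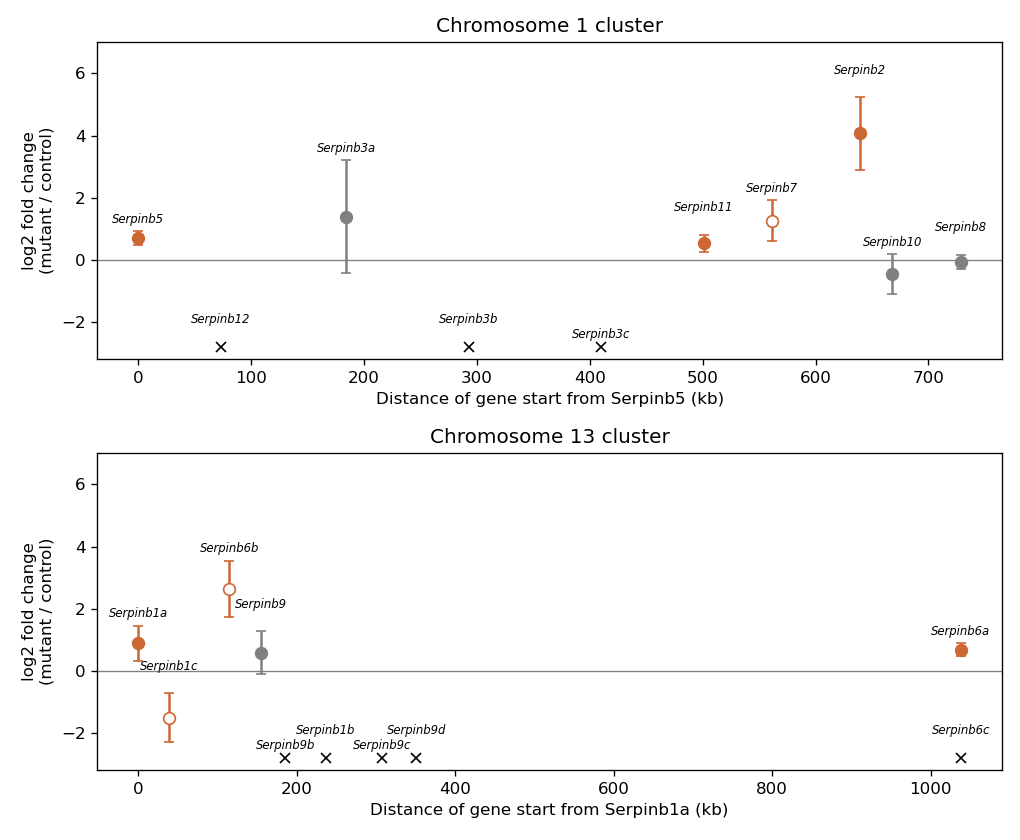
Log2 fold change with its 95% interval against the distance of each gene's start from the first gene of its cluster, in kb, for chromosome 1 (top) and chromosome 13 (bottom). Orange marks an adjusted p under 0.05, open circles are clade B genes other than the 10 described, and crosses at the bottom are genes not tested. On chromosome 1 *Serpinb10* and *Serpinb8*, which did not pass the test, lie next to *Serpinb2*, which rose by 4.07.

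Neighbouring genes did not move alike. The chromosome 1 cluster spans 751 kb, from *Serpinb5* to *Serpinb8*, and holds 7 of the 10 genes described, of which 6 were tested and 3 rose. *Serpinb2*, at a log2 fold change of 4.07, lies between *Serpinb7* at 1.25 and *Serpinb10* at -0.47. The 4 clade B genes that rose here (*Serpinb5*, *Serpinb11*, *Serpinb7* and *Serpinb2*) all held the loose AP-1 motif shown above, only *Serpinb7* as TGAGTCA. So did *Serpinb8*, *Serpinb10* and *Serpinb12*, which did not pass the test or were not tested. The chromosome 13 cluster spans 1161 kb and holds 3 of the genes described, all tested, of which *Serpinb1a* and *Serpinb6a* rose. *Serpinb6a* and *Serpinb6b* rose there with no AP-1 match in their windows, and *Serpinb1a* had no window to search. Of 8 tested genes listed as neighbours of the chromosome 1 cluster, 0 rose and 1, *Kdsr*, fell, by 0.49 on the log2 scale (edgeR adjusted p = 0.0099). Their median was -0.07, and over all genes tested 7.82% rose and 5.42% fell. Among the 765 genes with a window that rose in the whole table, 10.8% held the AP-1 motif.

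The summed FPKM of all 20 clade B genes was 384, 365 and 390 in control mice and 715, 548 and 507 in mutant mice. The groups did not overlap, and the mean was 380 ± 14 in control and 590 ± 110 in mutant mice (SD, n = 3 each), 1.55-fold higher. The 10 genes described made at least 99.4% of it in each sample. *Serpinb5* held 45.5% to 47.6% of the sum in control and 46.1% to 51.8% in mutant samples, so its share overlapped although its level rose. The share of *Serpinb8* was 9.96%, 11.3% and 10.8% in control mice and 6.77%, 7.14% and 7.27% in mutant mice, without overlap. Its level overlapped between the groups while the sum around it was higher. The order of the genes by mean control FPKM was *Serpinb5*, *Serpinb11*, *Serpinb8*, *Serpinb1a*, *Serpinb6a*, *Serpinb3a*, *Serpinb9*, *Serpinb10*, *Serpinb2* and *Serpinb12*. In mutant mice *Serpinb1a* passed *Serpinb8* and *Serpinb2* passed *Serpinb9* and *Serpinb10*. The highest control value of *Serpinb1a*, 37.9, lay just under the lowest of *Serpinb8*, 38.3, a gap smaller than the spread of either gene. The other neighbours in that order did not overlap among control mice. Among mutant mice *Serpinb1a* overlapped *Serpinb8*, and *Serpinb3a* overlapped *Serpinb2* and *Serpinb9*.

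**Figure D3:**
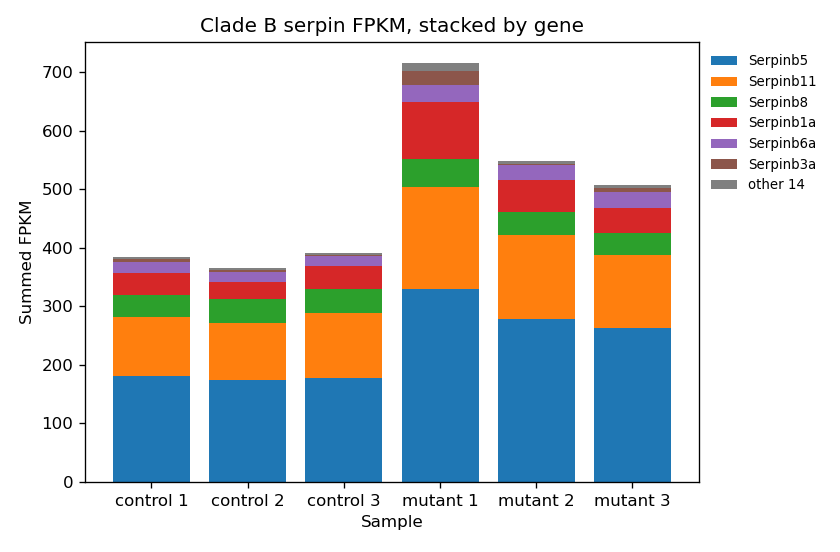
Summed FPKM of the 20 clade B genes in each sample, stacked by gene from *Serpinb5* at the bottom. The control columns reach 365 to 390 and the mutant columns 507 to 715, and the green segment of *Serpinb8* is of like height throughout while most segments around it are taller in mutant mice.

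The 3 mutant mice differed among themselves. Mutant sample 1 was the highest mutant sample in 8 of the 10 genes, all but *Serpinb10* and *Serpinb12*, and also in *Serpinb6b*, *Serpinb7* and *Serpinb3c*. It also lay farthest from the control mice on the first principal component, at 41.8 beside 27.7 and 27.3 for mutant samples 2 and 3. The share of all tested genes that were highest in mutant sample 1 was not counted. This order therefore cannot be called particular to the serpins. Relative to the control mean, on a log2 scale of CPM, *Serpinb1a* stood at 1.46, 0.66 and 0.27 in mutant samples 1, 2 and 3. *Serpinb11* stood at 0.77, 0.49 and 0.27 and *Serpinb9* at 1.08, 0.60 and -0.22. *Serpinb6a* was the steadiest of those that rose, at 0.82, 0.60 and 0.62. The same sample had the most counts of *S100a8*, 1858 beside 349 and 228, and of *S100a9*, 13520 beside 2646 and 1966, the alarmins of neutrophils that stressed keratinocytes also make. Their part in the serpin values was not tested.

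**Figure D4:**
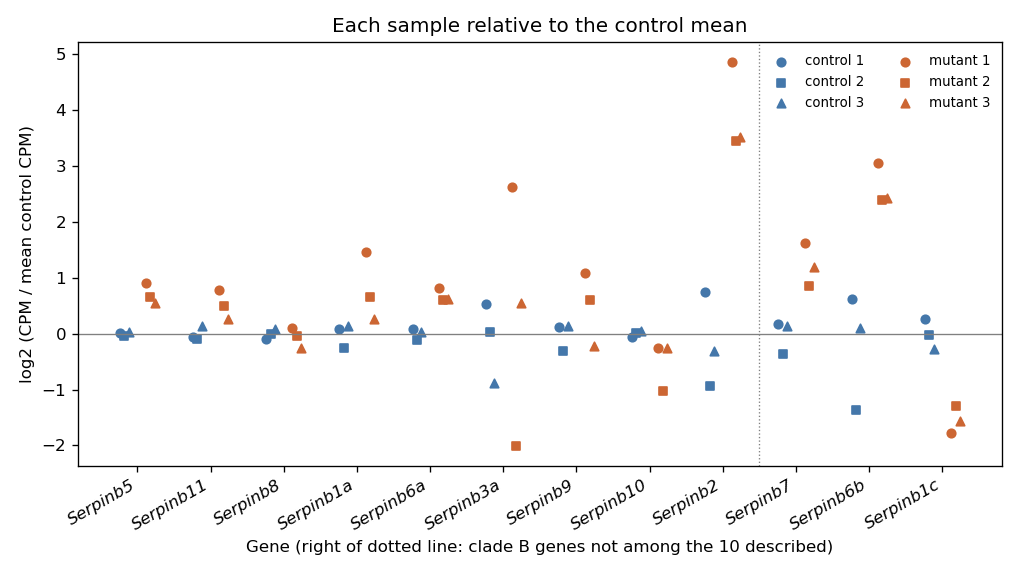
Log2 ratio of each sample's CPM to the mean control CPM for 9 of the genes described and, right of the dotted line, 3 other clade B genes (blue: control, orange: mutant, marker shape: mouse). Mutant sample 1, the circle, is the highest mutant point in each gene drawn except *Serpinb10* and *Serpinb1c*.

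Other protease inhibitors and epithelial proteases were read in the same fit, from lists by class. The counts in this and the next paragraph stand beside 7.82% higher and 5.42% lower over all genes tested. Of 15 tested inhibitors of other families 10 rose and 0 fell, with a median log2 fold change of 0.78. *Wfdc2*, a secreted whey acidic protein inhibitor, had an FPKM of 49.9, 46.1 and 43.0 and then of 110, 85.4 and 89.3, a log2 fold change of 1.03 (edgeR adjusted p = 0.00038). *Spink5*, the inhibitor of epidermal kallikreins whose loss causes Netherton syndrome, had counts of 1757, 1405 and 1922 and then 6466, 4106 and 4107, a log2 fold change of 1.53 (adjusted p = 0.00094). *Timp1*, an inhibitor of matrix metalloproteinases, had counts of 2, 0 and 1 and then of 92, 56 and 37, a ratio of 61.6 (exact 95% interval 20.7 to 301, counting error only). Without control sample 2 the number of inhibitors called dropped to 6. The table held 23 serpins of other clades. Of the 8 tested, 4 rose and 0 fell, with a median of 1.87. *Serping1*, the C1 inhibitor of the complement cascade, rose by 3.73 and *Serpina3n*, an acute phase serpin, by 5.95, with adjusted p-values of 2.2e-05 and 6.98e-05 in the same test.

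Kallikrein-related peptidases, which shed surface cells of stratified epithelia by cutting desmosomes, had 8 tested genes, of which 6 rose and 0 fell, with a median of 1.98. *Klk7* had an FPKM of 0.11, 0.05 and 0.21 in control mice and of 6.60, 3.31 and 4.28 in mutant mice. On the log2 scale the change was 5.21 and that of *Klk8*, which had 2.45 to 2.94 FPKM in control and 9.14 to 13.2 in mutant mice, was 2.26 (both edgeR adjusted p = 7.38e-05). *Klk10* rose by 1.68 (adjusted p = 0.0021), from 18.4 to 42.5 FPKM in control to 86.0 to 96.6 in mutant samples. Of 15 membrane-bound and proprotein-cutting serine proteases 6 rose and 2 fell, with a median of 0.16. *Tmprss11g* was the most changed by adjusted p, at 214, 206 and 208 FPKM and then 480, 398 and 353, a log2 fold change of 0.97 (adjusted p = 0.00063), followed by *Tmprss11b* at 0.77 (adjusted p = 0.0016). That count of 8 dropped to 4 or 5 without control sample 1, 2 or 3 or mutant sample 2. Of the listed inflammatory caspases *Casp4* was at 0 counts in all control samples and at 64, 19 and 13 in mutant mice, at least 10.6-fold higher than 9 counts over the control group (adjusted p = 0.011).

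**Figure D5:**
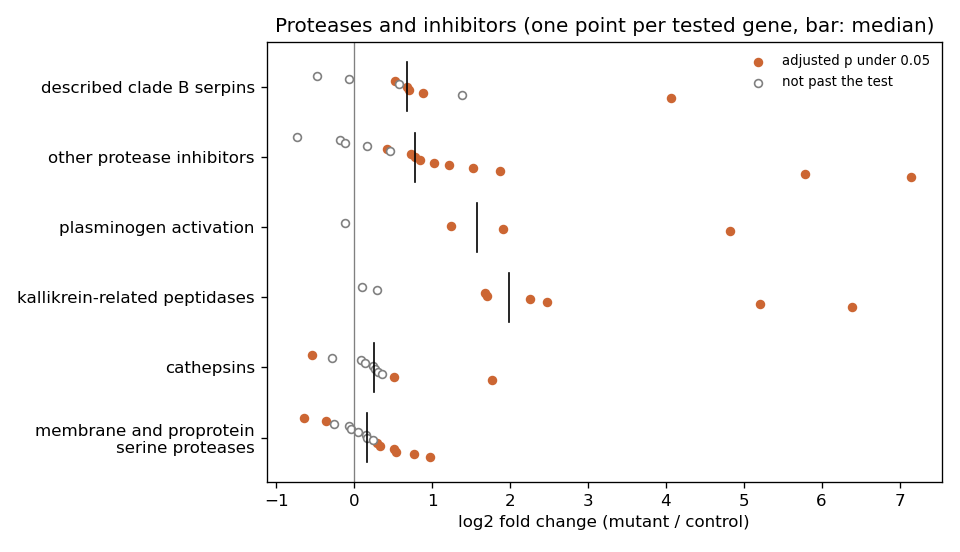
Log2 fold changes of the tested genes in 6 classes of inhibitors and proteases, 1 point per gene, filled orange at an adjusted p under 0.05 and open otherwise, with a bar at the median. The described clade B serpins have a median of 0.68, the other inhibitors 0.78, the plasminogen activation genes 1.57 and the kallikreins 1.98. Cathepsins and membrane proteases have medians of 0.26 and 0.16, with genes called in both directions in each class.

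Several of these serpins are also made by leukocytes and by epidermis, so the markers of such cells are given. The counts of markers called, here and in the next paragraph, stand beside 7.82% higher and 5.42% lower over all genes tested. Of 29 leukocyte markers 23 were in the table and 11 were tested, of which *S100a8* and *S100a9* rose and 0 fell. Without these alarmins the summed level of the leukocyte markers was 612 to 671 CPM in control and 516 to 746 CPM in mutant samples. *Itgam* and *Kit* made most of that sum, at 299 to 324 and 267 to 330 CPM in control and 237 to 451 and 233 to 308 CPM in mutant mice, so it says little of the other markers. *Ptprc*, carried by all leukocytes, had 6, 6 and 1 counts in control and 14, 2 and 9 in mutant samples. *Lyz2*, of macrophages and neutrophils, had counts of 0, 0 and 1 in control and of 23.7, 13 and 3.79 in mutant mice, all above the control mice and highest in mutant sample 1. *Cd3g*, *Mpo* and *Cd207* stayed under 3 counts in every sample. Of 9 epidermal markers 6 were tested, with 1 higher and 1 lower. *Ivl*, which encodes involucrin of the cornified envelope, rose by 1.07 on the log2 scale (edgeR adjusted p = 0.0168), with every mutant sample above every control sample. *Dsg1a*, a desmosomal cadherin, fell by 0.64 (edgeR adjusted p = 0.0012), and *Krt1* changed by -0.10 (edgeR adjusted p = 0.73). The summed level of the epidermal markers was 1417 to 1636 CPM in control and 940 to 1032 CPM in mutant samples, of which *Dsg1a* alone made 1374 to 1600 and 883 to 986 CPM.

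Of 5 conjunctival markers tested, 0 rose and 2 fell, and *Muc5ac*, of goblet cells, had at most 1 count in a sample. Stromal markers summed to 27.0 to 28.4 CPM in control and 18.8 to 27.0 CPM in mutant samples, mostly from *Pdgfra*, which fell by 0.78 on the log2 scale (edgeR adjusted p = 0.0050), and *Aldh1a7*. Of the 4 tested, the other gene called was *Dcn*, the matrix proteoglycan decorin, with counts of 3, 2 and 1 in control and of 66, 34 and 14 in mutant mice (edgeR adjusted p = 0.0051). The collagen genes *Col1a1* and *Col3a1* were not tested, with counts of 1, 1 and 2 and of 1, 0 and 0 in control and of 23, 23 and 6 and of 32, 15 and 6 in mutant mice, each without overlap. *Lum* had 0, 1 and 0 and then 23, 10 and 0. *Dcn*, *Col3a1* and *Lum* were highest in mutant sample 1, the sample in which most of the serpins were highest. *Col1a1* was alike in mutant samples 1 and 2. Among mutant mice *Pdgfra* was highest in sample 2 and *Aldh1a7* in sample 3. *Kera*, the keratocyte marker, stayed at 2 counts or fewer in every sample. None of the 5 vascular endothelial markers present passed the filter on low counts, with sums of 0.20 to 0.63 and 0.62 to 0.90 CPM, and *Pecam1* had 2, 2 and 5 counts in control and 8, 7 and 14 in mutant samples. Of 12 corneal epithelial markers 2 rose and 2 fell, at a median of -0.11. *Krt14*, whose promoter drives the Cre, rose by 3.32 on the log2 scale (edgeR adjusted p = 1.06e-05). Its mean FPKM was 178 in control and 1753 in mutant mice. *Epcam* rose by 0.30, and *Krt15* and *Aldh3a1* fell, at -0.55 and -0.25. The part of these cell types in the serpin values was not tested.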

How the data were processed

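RNA of the corneal epithelial layer of 3 control and 3 *Krt14-Cre; Rela f/f* mice was sequenced by the authors on a BGISEQ-500 (single-end, 50 bases), cleaned with SOAPnuke, mapped with Bowtie2 2.2.5 and quantified with RSEM 1.2.12, per the methods and the submitters' processing notes. The deposited expected counts were made by RSEM and are neither normalized nor pooled, and the deposited FPKM values are RSEM's, scaled by the authors for transcript length and sample total. The authors' mean columns and their columns of fold changes with p-values and q-values were not used. The notes name mm9, but the chromosome accessions and coordinates of the table are those of GRCm38, which is used here.

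Expected counts were rounded and fitted in edgeR 4.0.16 (R 4.3.3) with TMM scaling, filterByExpr (minimum count 10, minimum total 15) and the quasi-likelihood test of genotype over all 6 samples, with Benjamini-Hochberg adjustment over 12667 genes. Standard errors were taken as the absolute log2 fold change divided by the root of F. An adjusted p printed beside edgeR in the text is of this quasi-likelihood test. Replicates are separate mice as the labels and methods give them, and no pair of samples agreed within sampling noise. Results were recomputed with upper-quartile scaling, DESeq2 1.42.0, no filter, limma 3.58.1 on log2(FPKM + 1) and log2(FPKM + 0.1) for genes with a mean FPKM of at least 0.1, the replicate number as a block, and with each sample left out. Alternatives for the protease and inhibitor lists were added after seeing the data. On simulated data for this comparison, with 200 of 12667 genes changed, edgeR recovered 90% of changes of 2-fold and 100% of 4-fold with 13 false calls. The changed genes were drawn only from those above a floor of control counts. These rates do not cover smaller changes, such as those of most called clade B serpins, or low genes such as *Serpinb2*.

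The members and lists were chosen with earlier results of these data known. The genes named are all 10 members, other clade B genes that reach 10 counts in a sample, up to 3 called genes of each list by adjusted p, and known partners of single members. Some genes that this rule would name are not reported here. *Nqo2*, *Ripk1*, *Serpinb9c*, *Plgrkt*, *S100a8*, *S100a9*, *Ivl*, *Dsg1a* and further leukocyte, stromal and corneal epithelial markers were named after their values were seen. Promoter windows are those of RefSeq (GRCm38.p6), and shared windows and exon overlaps were counted in GENCODE vM21. The exact interval of the *Timp1* ratio and the limit of 3 counts cover counting error only. The other intervals rest on the standard errors of the quasi-likelihood fit, which include the spread between mice.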

Additional observations from a re-analysis of the deposited data

How the results depend on the processing

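*Serpinb2*, *Serpinb5* and *Serpinb6a* were called at an adjusted p under 0.05 in each alternative run. The number of the 10 genes called was 4 or 5 under each other tool, scaling, filter and block, and 3 to 5 with 1 sample left out. Under the paper's stricter call the count of 0 became 1 with DESeq2, with no filter and with the replicate block, and was 0 to 1 with 1 sample left out. In each case the gene was *Serpinb2*. Over all genes, 1678 calls became 857 to 1869 with 1 sample left out, and 173 genes past the stricter thresholds became 330 with DESeq2, 103 with limma on log2(FPKM + 1) and 36 to 193 with 1 sample left out. The log2 fold change of *Serpinb3a*, 1.39, ranged from -0.22 (without mutant sample 1) to 1.92 with 1 sample left out. That of *Serpinb8*, -0.06, became 0.02 with limma under either pseudocount and ranged from -0.15 to 0.03 (without mutant sample 3) with 1 sample left out, none of them past the test. The causes were not tested. Of 144 values of single genes under alternatives, 118 kept their direction and side of the threshold, 22 lost the call and 4 turned.

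Same-numbered samples share only a number. Their deviations from the group means correlated at -0.046 to 0.048, and not every sample was most like its own number. With the replicate block 5 of the 10 genes and 1419 genes in all were called, and the call of *Serpinb1c* was lost (edgeR adjusted p = 0.058). Depth limits *Serpinb2*, *Serpinb9* and *Serpinb10* in control mice and leaves *Serpinb12* unread, while 3 mice per genotype limit the spread that can be estimated for *Serpinb1a* and *Serpinb3a*.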
